A study of Mus musculus with 2 samples.

Results

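Sulfiredoxin, peroxiredoxins and glutaredoxins are thiol enzymes that remove peroxides or repair oxidised cysteines. The members are 7 genes, Srxn1, Glrx, Glrx2, Glrx3, Glrx5, Prdx5 and Prdx6, out of 7409 genes with a named probe. They were chosen by name with their ratios between the arrays already known, so their values are a description. All probes of these genes were taken, 11 in all. The cells were CD1 mouse embryonic fibroblasts, from an outbred mouse stock, of the kind on which human embryonic stem cells are grown. FGF2 fibroblasts were kept for 24 h in serum replacement medium for human embryonic stem cells with 40 ng/ml of the growth factor FGF2, and control fibroblasts for the same time in that medium with no FGF2. Both groups had first been inactivated with the DNA crosslinker mitomycin C and plated on gelatine at 55000 cells per square centimetre. Each group was measured on 1 Illumina bead array, so differences could not be tested against replicates, no p-value is given, and each comparison is of these 2 arrays alone.

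Peroxiredoxins reduce hydrogen peroxide through a reactive cysteine, which an excess of peroxide can oxidise further to an inactive sulphinic acid. Sulfiredoxin, the product of Srxn1, uses ATP to return that cysteine to its active state in typical peroxiredoxins such as Prdx1, but is not known to act on Prdx5 or Prdx6. Glutaredoxins use glutathione to free cysteines from mixed disulphides, and the monothiol forms Glrx3 and Glrx5 carry iron-sulphur clusters. Srxn1 is known as a target of AP-1, the Fos and Jun transcription factors that act downstream of ERK, and of NRF2, the regulator of antioxidant genes.

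The start regions of Srxn1 and Glrx, whose ratios were the highest of the members, and of the mitochondrial Glrx5, whose ratio was the lowest, are printed to show where the letters of an AP-1 site occur. Each is the 250 bases before the start in RefSeq's promoter table (build GRCm38.p6, plus strand), and capitals mark the AP-1 motif TGANTCA, searched on both strands. The regions are chr2:152105274-152105523 for Srxn1, chr13:75839635-75839884 for Glrx and chr12:105032368-105032617 for Glrx5.
Srxn1: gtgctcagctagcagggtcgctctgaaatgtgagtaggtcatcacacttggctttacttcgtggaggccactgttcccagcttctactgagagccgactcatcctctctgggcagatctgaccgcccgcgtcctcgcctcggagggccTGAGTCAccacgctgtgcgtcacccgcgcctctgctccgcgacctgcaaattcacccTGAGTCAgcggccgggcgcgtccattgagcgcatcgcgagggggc
Glrx: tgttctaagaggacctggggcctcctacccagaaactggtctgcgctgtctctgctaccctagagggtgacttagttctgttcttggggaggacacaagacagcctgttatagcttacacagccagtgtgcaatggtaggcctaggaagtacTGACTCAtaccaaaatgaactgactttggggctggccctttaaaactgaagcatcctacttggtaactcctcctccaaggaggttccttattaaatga
Glrx5: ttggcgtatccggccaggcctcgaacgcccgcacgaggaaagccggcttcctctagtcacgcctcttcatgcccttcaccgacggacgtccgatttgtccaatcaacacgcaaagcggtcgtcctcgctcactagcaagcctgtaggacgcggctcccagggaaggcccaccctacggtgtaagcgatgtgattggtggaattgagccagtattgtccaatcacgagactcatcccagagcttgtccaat
Srxn1 held 2 matches, beginning 102 and 45 bases before the start, and Glrx held 1, beginning 98 bases before the first of its listed starts. Of the 6 members with an entry in the table, Srxn1 and Glrx were the 2 with a match. Prdx6, whose brighter probe was also at least 1.5-fold higher with FGF2, had no entry and was not searched. The windows of Glrx2, Glrx3, Glrx5 and Prdx5 held none. Over all 32851 promoter windows of that length, 6.75% held at least 1 match and 0.338% at least 2. These shares count windows, and a gene can have more than 1, as Glrx2 and Glrx do. The core of the antioxidant response element, TGACNNNGC, was searched on both strands as well. It was in 0 of the 10 windows of the 6 members and in 10.2% of all promoter windows. In Srxn1 the match nearest the start runs on into GC. That longer form, TGANTCAGC, contains the AP-1 motif, is also taken by looser definitions of the antioxidant response element and was in 1.02% of windows. It was searched after the sequence had been seen. A match is a run of letters and does not show that a factor binds there. The regions printed were picked by ratio, and a part of AP-1 or NRF2 in the ratios was not tested.

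On the array with FGF2, 8129 of 24044 probes were detected, and 8210 were on the control array. A probe was called detected at a deposited score of at least 0.99. Probes that were not detected had median deposited signals of 132.5 with FGF2 and 140.5 in the control, which is the part of any signal that is background. All 6 fibroblast markers with a named probe were detected (Col1a1, Col1a2, Col3a1, Dcn, Prrx1 and S100a4). Their summed deposited signal was 15667 with FGF2 and 20575 in the control, with a median log2 ratio of -0.56. Col1a1 was 3.38-fold lower with FGF2, Col1a2 2.46-fold lower, and S100a4 was 1.68-fold higher. Of markers of other cells, 2 of 5 of macrophages and blood, 1 of 2 of endothelium and 2 of 3 of epithelium were detected. Ptprc, Cd68, Csf1r, Pecam1 and Krt8 were not. The summed deposited signal of the epithelial markers was 891.5 with FGF2 and 746.6 in the control. Among them the keratin gene Krt18 was 1.88-fold higher with FGF2, at normalized signals of 385 with FGF2 and 205 in the control, and 3.57-fold higher in the authors' deposited table. The summed deposited signal of the macrophage and blood markers was 986.4 and 1124.4, with the FGF2 array first. For the endothelial markers it was 437.0 and 447.1 in the same order. All these sums include background and any probe that was not detected, and background weighs most on the small sums. The part of such cells in the results below was not tested, and in bulk RNA a change in the share of a cell type cannot be told apart from a change in RNA per cell.

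All 7 members were detected on both arrays by at least 1 probe. Of the 11 probes, 9 were detected on both arrays, 1 with FGF2 only and 1 on neither. The brightest detected probe stands for each gene. Ratios are of FGF2 over control after quantile normalization, on the log2 scale, and signals are normalized intensities unless another scale is named. Of the 7 members, 3 were at least 1.5-fold higher with FGF2, against 4.57% of all 3217 named genes detected, and 0 were 1.5-fold lower, against 5.04%. Srxn1 and Glrx were at least 2-fold higher, which 1.03% of named genes were. The median over the 7 was 0.43, and over all named genes it was 0.03.

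**Figure D1:**
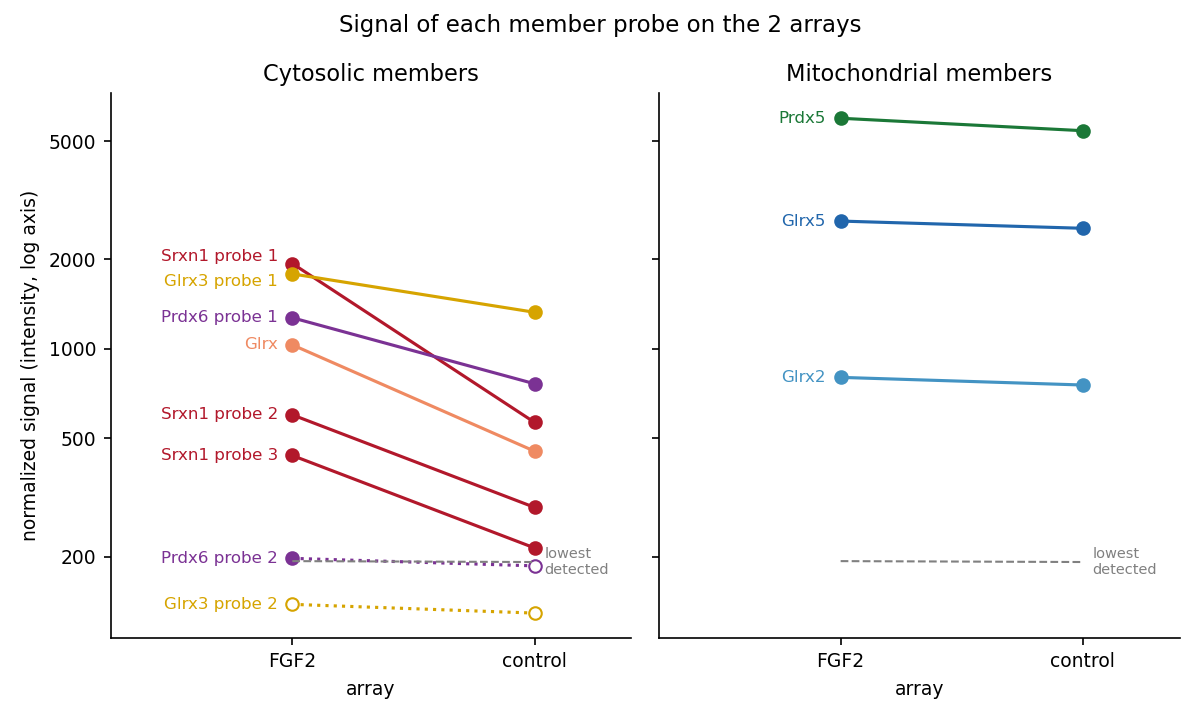
Normalized signal (intensity, log axis) of each of the 11 member probes on the FGF2 array and the control array, 1 line per probe. Filled points were detected and open points were not, and the dashed line joins the lowest detected signals of the arrays. The lines of Srxn1 and Glrx are the steepest, and those of Prdx5, Glrx5 and Glrx2 are nearly level. Those of the dimmer Prdx6 probe and the undetected Glrx3 probe, both cytosolic, are nearly level too.

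Srxn1 had the highest ratio of the members. Its brightest probe had a signal of 1937 with FGF2 and 566 in the control, a log2 ratio of 1.78 or 3.42-fold, with a bead error of 0.081. The bead error combines the deposited bead deviations of both arrays and covers the measurement on the arrays only. It was computed from the deposited signals, before normalization. Whether the deviation is an SD or a standard error, and the number of beads, are not given. A second Srxn1 probe stood at 600 with FGF2 and 293 in the control (log2 ratio 1.03), and the dimmest at 438 and 214 in the same order (also 1.03). All 3 probes were thus at least 2-fold higher with FGF2, and 1.38% of all detected probes were. In the deposited signals, without normalization, the second and dimmest probes had log2 ratios of 0.96 and 0.95, just under 2-fold. Srxn1 ranked 8 of 3217 named genes by its brightest probe.

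The probes of Srxn1 differed in size. Their log2 ratios spanned 0.74, and 5 of 243 genes with at least 2 probes detected on both arrays, Srxn1 among them, spanned that much or more. Over 299 such pairs of probes, a single log2 ratio had an SD of 0.18. A span tends to grow with the number of probes, of which Srxn1 had 3, and genes were not matched on that number. The deposited array signals include background, which weighs most on the dimmer probes. In the authors' deposited table, which holds background-subtracted intensities, the brightest probe read 1882 with FGF2 and 435 in the control. The second probe read 481 and 162 there, and the dimmest 310 and 81.7. The log2 ratios became 2.11, 1.57 and 1.92 in the authors' deposited table, a span of 0.55, which 30 of the 243 genes reached there. The folds of the dimmer Srxn1 probes were 2.96 and 3.79 in the authors' deposited table, against 2.05 on both before. FGF2 values there are also multiplied by 1.054. The control value of 81.7 is near the lowest control value there, 58.7. The fold of 3.79 therefore depends strongly on the amount subtracted.

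With only 2 arrays, the likeness of a gene to Srxn1 is no more than the difference between their log2 ratios. It was taken from the brightest Srxn1 probe, at 1.78. The second and dimmest Srxn1 probes were at 1.03, and the 5 genes named here had ratios of 1.66 to 1.97. Which genes are nearest therefore depends on the choice of Srxn1 probe. Among 1930 other named genes that both arrays detected, with a signal of at least 2 times the lowest detected one, the nearest by this measure was the granzyme gene Gzme, 0.07 below Srxn1. It passed that limit on brightness through the FGF2 array alone: its signal was 638 with FGF2 and 195 in the control, where the lowest detected signal was 192. Its log2 ratio was 3.07 in the authors' deposited table, well above the 2.11 of Srxn1 there, so its place as nearest rests on the background in the signal. Other granzyme genes have similar sequences, which makes its value uncertain. Gap43, a growth cone protein, lay 0.09 below and Il1rl1, the receptor of interleukin 33, 0.09 above. Ccnd1, the G1 cyclin, was 0.12 below. Sh3bgrl2, of the SH3BGR family whose proteins resemble glutaredoxins in fold, was 0.20 above. All 5 differences are smaller than the typical difference of 0.26 (root mean square) between the log2 ratios of 2 probes of a gene, so the order among the 5 genes is not resolved.

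Glrx, the cytosolic glutaredoxin that removes glutathione from proteins, came next. Its only probe had a signal of 1031 with FGF2 and 453 in the control, a log2 ratio of 1.19 or 2.28-fold, with a bead error of 0.083. It ranked 24 of the named genes. In the authors' deposited table it read 923 and 327, with FGF2 first, which is 2.82-fold.

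Prdx6, a peroxiredoxin with a single catalytic cysteine that also has phospholipase activity, was 1.67-fold higher on its brighter probe. The signal was 1272 with FGF2 and 763 in the control, a log2 ratio of 0.74 with a bead error of 0.10. Its other probe did not show this. That probe had deposited signals of 191.1 with FGF2 and 191.8 in the control, at the edge of detection. Its detection score was 0.993 with FGF2, just inside the limit, and 0.983 in the control, just outside. It therefore gave a bound of 0.04 whose sign follows from the limit, and the signals differed by less than their bead deviations of 8.0 and 7.1. The next nearest member value inside the limit was the dimmest Srxn1 probe in the control, at 0.999.

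Glrx3, a cytosolic monothiol glutaredoxin that helps to deliver iron-sulphur clusters, stood at 1788 with FGF2 and 1328 in the control. Its log2 ratio of 0.43 (1.35-fold) was larger than its bead error of 0.074 and below the 1.5-fold limit. A second Glrx3 probe was not detected on either array, with deposited signals of 134.0 and 133.0, and has no ratio.

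The mitochondrial members were close to equal on the 2 arrays. Prdx5, a peroxiredoxin of mitochondria that is also found in peroxisomes and cytosol, had a signal of 5972 with FGF2 and 5422 in the control, a log2 ratio of 0.14. Glrx2, the dithiol glutaredoxin of mitochondria, had 802 and 756, with FGF2 first, and a ratio of 0.09. Glrx5, which passes iron-sulphur clusters on in mitochondria, had 2692 with FGF2 and 2545 in the control, and a ratio of 0.08. On this scale all 3 ratios were within the SD of 0.18 between probes of a gene, which is not a spread between arrays. Prdx5 was at 0.21 with the signals as deposited. In the authors' deposited table it was at 0.29, where that SD was 0.25. With 1 array a group these values do not show that the genes were unaffected.

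**Figure D2:**
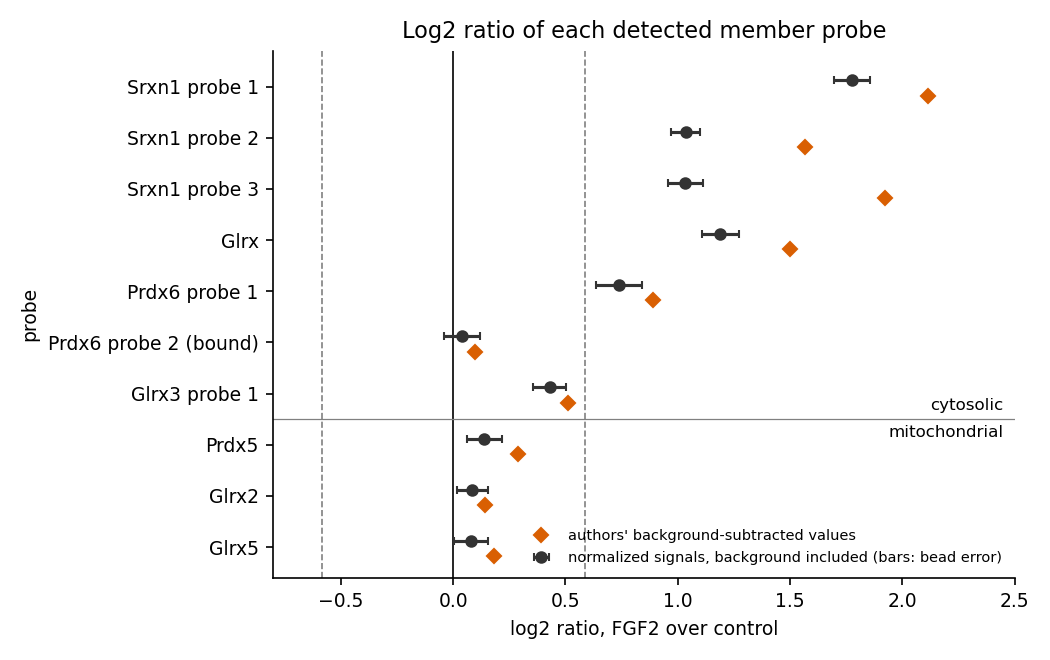
Log2 ratio of FGF2 over control for each of the 10 member probes detected on at least 1 array, from normalized signals (circles, bars are the bead error) and from the authors' background-subtracted values (diamonds). The dashed lines mark 1.5-fold. The 3 Srxn1 probes, Glrx and the brighter Prdx6 probe lie past it on both scales, and Glrx3 and the 3 mitochondrial members lie inside. The dimmer Prdx6 probe, which is cytosolic and a bound, lies inside too.

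Location here is the textbook one of each gene's main protein form and was not measured. Set side by side, the 4 cytosolic members had log2 ratios of 0.43 to 1.78 with a median of 0.96. The 3 mitochondrial members had ratios of 0.08 to 0.14 with a median of 0.09. At 1.5-fold, 3 of 4 cytosolic and 0 of 3 mitochondrial members were higher with FGF2, beside 4.57% of named genes. The medians differed by 0.88, and the lowest cytosolic member, Glrx3, lay 0.29 above the highest mitochondrial one, Prdx5. In the authors' deposited table the medians were 1.19 for cytosolic and 0.18 for mitochondrial members. There too 3 of 4 and 0 of 3 were at least 1.5-fold higher, although 11.5% of named genes were on that scale. The split by location rests on which probe stands for Prdx6: with the dimmest detected probe of each gene the 2 sets overlapped by 0.10. The members were picked with their ratios in view and number 7, so no test of the difference was made.

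Members of both locations lay in the same brightness bins. Srxn1, Glrx, Prdx6 and Glrx2 were in bin 4 of 5 bins of named genes by rising brightness, in which 95% of log2 ratios lay between -0.88 and 0.84. Glrx3, Glrx5 and Prdx5 were in bin 5, where the limits were -1.11 and 0.79. Srxn1 and Glrx lay above that range in their bin and the other 5 members inside it. In bins 4 and 5, 6.38% and 6.37% of genes were at least 1.5-fold higher with FGF2.

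**Figure D3:**
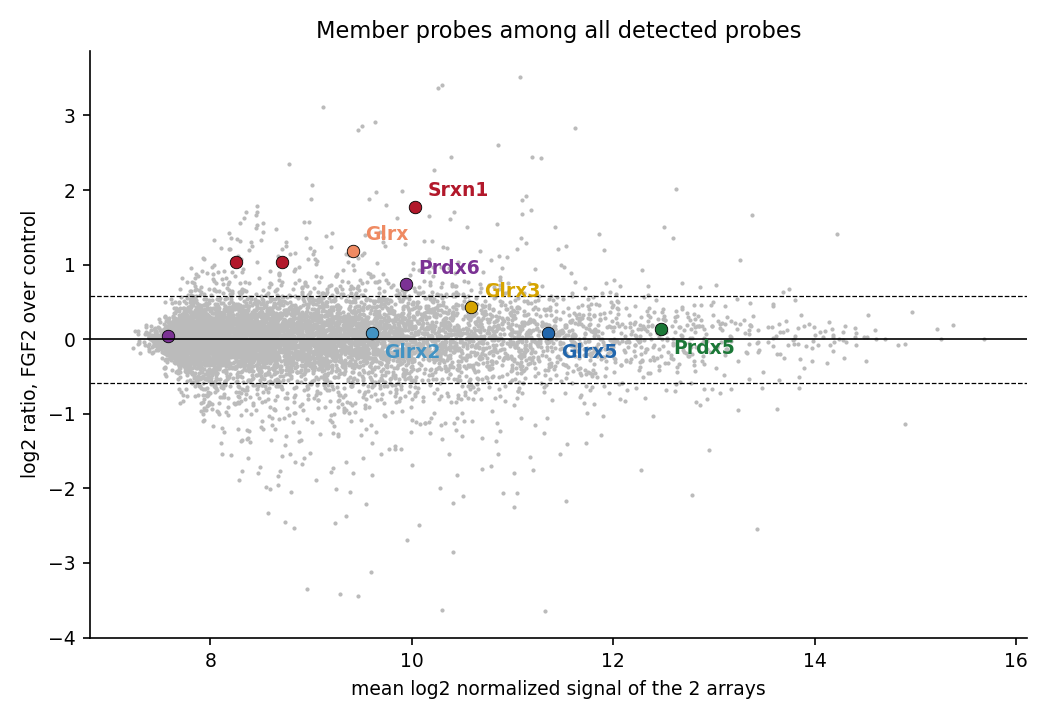
Log2 ratio of FGF2 over control against the mean log2 normalized signal of the 2 arrays, for all 8711 probes detected on at least 1 array (grey) and the 10 detected member probes (coloured, named at the brightest probe of each gene). Dashed lines mark 1.5-fold. The unnamed red points are the dimmer Srxn1 probes and the unnamed purple point is the dimmer Prdx6 probe, at the low end of detection.

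Genes that work with these enzymes were read from 9 lists. Beside the members the lists held 108 genes, of which 44 had a named probe and 32 were detected. Of the 32, 3 were higher by 1.5-fold or more with FGF2 and 3 were lower by as much, which is 9.38% each way beside 4.57% and 5.04% of all named genes. Their median was 0.05. Of the 32 genes, 8 were at least 1.5-fold higher in the authors' deposited table, beside 11.5% of named genes, and 4 at least 1.5-fold lower, beside 9.98%.

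Among peroxiredoxins, Prdx1 was the only other gene of the list detected. It codes for a cytosolic peroxiredoxin that sulfiredoxin repairs, and had a signal of 17142 with FGF2 and 11908 in the control. Its log2 ratio of 0.53 was just under 1.5-fold, and it was 1.59-fold higher in the authors' deposited table. Prdx2 was not detected. The 4 detected peroxiredoxin and sulfiredoxin genes had a median of 0.63 and the 4 glutaredoxins one of 0.26. Of the SH3BGR family, only Sh3bgrl2 was detected, with 1591 with FGF2 and 405 in the control (3.93-fold). Prdx1 has processed copies in the genome, and the sequence of its probe was not used here, so its value is uncertain.

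The thioredoxin system, which supplies electrons to most peroxiredoxins, was read through 4 of 12 list genes only. These were Txnl1, Txnl4a, Txndc12 and Nxn, and the thioredoxins and thioredoxin reductases themselves were not analysed here. None of the 4 was 1.5-fold higher or lower. Nxn (nucleoredoxin) had a signal of 7229 with FGF2 and 9468 in the control, a log2 ratio of -0.39. Txnl4a, a thioredoxin-like splicing protein, had a log2 ratio of 0.08 on its brightest probe and 0.32 on its other. The list median was -0.10. Sod1, the cytosolic superoxide dismutase that produces hydrogen peroxide from superoxide, was the 1 detected gene of its list and stood at 0.03. Msrb3, a methionine sulphoxide reductase, was detected in the control only, with a bound of -0.05.

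Of NRF2 pathway genes and targets, 11 of 14 with a named probe were detected, with a median of 0.28. Pgd, an enzyme of the pentose phosphate pathway that makes NADPH, was 1.64-fold higher (5504 with FGF2 and 3358 in the control). Gstm1, a glutathione transferase, was 1.90-fold lower (316 with FGF2 and 598 in the control). The family holds genes of similar sequence, so its value is uncertain. The other 9 lay within 1.5-fold on their brightest probe. Among them Gstp1 (0.56), Mafg (0.56) and Gclm (0.54) passed 1.5-fold in the authors' deposited table, at 1.63-fold, 1.76-fold and 1.78-fold higher. A dimmer Gstp1 probe was at 0.62, which is past 1.5-fold. Bach1, a repressor of NRF2 targets detected in the control only, had a bound of -0.42 and was at least 2.16-fold lower in the authors' deposited table. Gclm is the modifier subunit of the first enzyme of glutathione synthesis, and Mafg a partner of NRF2 on DNA. Genes of the list lay on both sides of 0, with 7 of 11 above it, beside 54.9% of all named genes.

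Iron-sulphur cluster assembly, in which Glrx3 and Glrx5 take part, had a median of 0.05 over 10 detected genes. Hspa9, the mitochondrial chaperone that works with Glrx5 in cluster transfer, was 1.96-fold higher, with 1747 with FGF2 and 892 in the control. Iscu, the scaffold on which clusters form, was 1.56-fold lower, with 2035 with FGF2 and 3170 in the control. These mitochondrial partners of Glrx5 were thus on opposite sides, while Glrx5 itself was at 0.08. The other 8 genes of the list lay within 1.5-fold. Of oxidases that release hydrogen peroxide, Loxl1, which crosslinks elastin, was 1.74-fold lower (5929 with FGF2 and 10310 in the control). The list had 3 detected genes and a median of -0.55, which was -0.009 with detection at a score of 0.95 and -0.09 at 0.90.

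**Figure D4:**
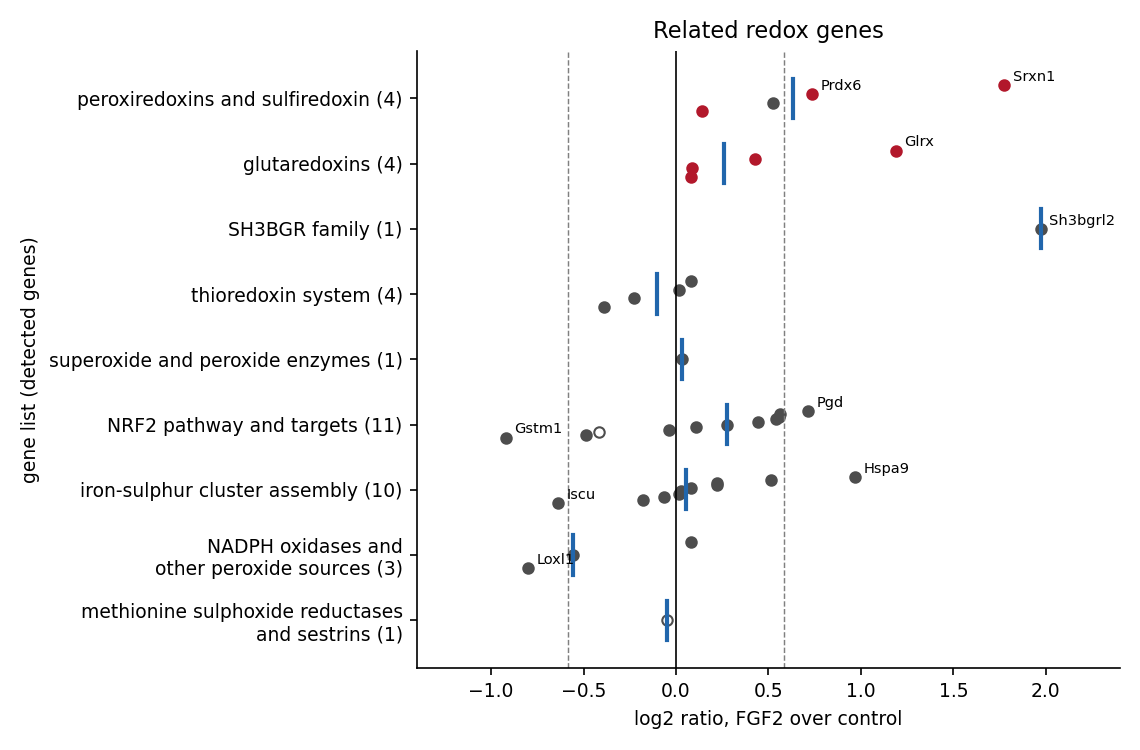
Log2 ratio of FGF2 over control for the detected genes of 9 redox gene lists, 1 point per gene, with the 7 members in red, genes detected on 1 array only as open points and the median of each list as a blue bar. Dashed lines mark 1.5-fold. Genes past it are named: Sh3bgrl2, Srxn1, Glrx, Hspa9, Prdx6 and Pgd on the right, and Gstm1, Loxl1 and Iscu on the left.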

How the data were processed

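Total RNA (300 ng) was amplified (in vitro transcription for 6 h) and carried the label Cy3, per the labels' protocols, and BeadStudio 1.0 was used, per the submitters' processing notes. The deposited array files give, per the file headers, a signal intensity, a bead deviation and a detection score for 24044 probes. The deposited intensities include background. The authors' processed table holds intensities that equal the FGF2 signal less 131.5, multiplied by 1.054, and the control signal less 139.2, with values only where the score was at least 0.99. The method behind the factor and the genome build are not given in the sources used here.

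The files do not give gene names, and every name here depends on a match: the number of at least 5 digits after 1 or 2 zeros in a probe ID was read as an NCBI gene ID (RefSeq table, GRCm38.p6). Of 9523 such probes 93.3% matched, and 48.6% would after adding 1 to each number. Signals were quantile normalized, those under the lowest detected signal (193.1 with FGF2 and 191.7 in the control) were set to it, and log2 ratios were taken. A gene detected on 1 array has a bound. The members and lists were chosen with earlier results of these data known. From each list, up to 4 genes at least 1.5-fold apart were named, or else the 2 brightest. The 5 genes nearest to the brightest Srxn1 probe were named too. Prdx1, Gstp1, Mafg, Gclm, Bach1, Txnl1, Txndc12 and the genes of other cells were named besides. Some genes of the lists are not reported here. The ratio step was tested on simulated data with changes planted on bright probes. The check was that their direction came back, and it did not cover dim probes. Python 3.11.15, numpy 2.4.6, pandas 2.3.3 and matplotlib 3.10.9 were used.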

Additional observations from a re-analysis of the deposited data

How the results depend on the processing

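For the number of members at least 1.5-fold higher, 3 of 7, 9 alternatives were tried. It was 2, without Prdx6, with the median over each gene's probes and with its dimmest probe, and 3 under the others. Among those, detection at 0.95 or 0.90 and the use of bright probes only left every member's ratio unchanged. They could therefore not change the number. Over the 9 alternatives, the log2 ratio of Srxn1 ran from 1.03 to 2.11, of Glrx from 1.11 to 1.5 and of Prdx6 from 0.04 to 0.89. That of Glrx3 ran from 0.39 to 0.51 and of Prdx5 from 0.14 to 0.29. Glrx2 ran from 0.04 to 0.14 and Glrx5 from 0.08 to 0.18. The difference between the cytosolic and mitochondrial medians was 0.65 with the median over each gene's probes and 0.65 with its dimmest probe, where the choice of probe lowers Srxn1 and Prdx6. Of the other list genes, 5 were higher and 4 lower with the signals as deposited, 5 and 2 with median scaling, 8 and 4 in the authors' deposited table, and 1 and 0 at 2-fold. The median of all named genes moved by less than 0.1 under every scaling. Background limits the dim probes: the lowest detected signals lie close to those of undetected probes. No paired analysis was possible because each group has 1 array.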

Other observations

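A further probe carries the number of Prdx5 in its ID with no leading zero and was not counted as a probe of that gene. Numbers without a leading zero were gene IDs in 10.7% of 10639 cases, against 10.3% of the next numbers, so its gene is not known. It was detected on both arrays, with deposited signals of 369.7 with FGF2 and 221.3 in the control and a log2 ratio of 0.82, whereas the named Prdx5 probe stood at 0.14.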
